A study of Mus musculus with 20 samples.

Results

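Basal-gate mammary cells that carried activated mutant PIK3CA were set against basal-gate cells of control mice. The comparison used 6 of the 20 arrays of the series, all from mixed FVB/CD-1 mice, 4 weeks after tamoxifen. The 3 mutant arrays came from K8-creERT2/PIK3CA H1047R mice, in which a keratin 8-driven, tamoxifen-dependent Cre turns on the H1047R transgene and GFP-positive cells are those in which it was on. They held GFP-positive cells of the basal gate, which is CD45-negative, CD24 low and Sca1-negative. The 3 control arrays held GFP-negative cells of the same gate from K8-creERT2 mice, which carried the same Cre and had also been given tamoxifen, but had no PIK3CA transgene in their label. Arrays were assigned by their labels alone. Each array came from 2000 sorted cells of a pool of 2 to 3 estrus-synchronized mice, and the pools came from 3 independent sortings. The other 14 arrays held GFP-negative basal cells of the mutants (3 arrays), GFP-positive mutant luminal cells (3 Sca1-negative and 2 Sca1-positive arrays) and control luminal cells (3 Sca1-negative and 3 Sca1-positive arrays).

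The mammary duct has an inner luminal layer, which can make milk, and an outer basal layer of contractile myoepithelial cells on a basement membrane. PIK3CA encodes the catalytic subunit of the lipid kinase PI3K, which acts downstream of insulin, IGF and ERBB receptors, activates AKT and keeps FOXO transcription factors out of the nucleus. H1047R is a recurrent activating mutation in breast cancer. Keratin 8 is mainly a luminal keratin, so a keratin 8-driven Cre acts mostly in luminal cells. The GFP-positive cells of the basal gate were thus marked by a promoter that is mainly luminal, although Krt8 RNA was also high in control basal cells (levels below). Whether control basal cells match the origin of the GFP-positive cells was not tested. Sorted cells were measured in bulk, so a change in the share of cells of some type and a change in RNA per cell cannot be told apart. The groups also differ in GFP sorting, since the mutant cells were GFP-positive and the control cells GFP-negative.

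All values are log2 levels, and differences are log2 differences, GFP-positive mutant minus control unless another pair is named. Array medians lay between 3.66 and 3.80, and a level in or under this range is called low here. Across probe sets, arrays correlated with r from 0.940 to 0.957 within the GFP-positive group, from 0.939 to 0.943 within the control group and from 0.919 to 0.936 between the groups. GFP-positive replicate 2 had the narrowest spread of the 6 arrays (SD 1.71 against up to 1.86). Both groups carried basal markers. Krt5, a basal keratin, was at 10.84, 10.65 and 10.86 in GFP-positive cells and at 10.63, 10.33 and 10.69 in control cells. Trp63, which encodes the basal transcription factor p63, was at 9.39, 9.15 and 8.97 in GFP-positive cells, against 8.60, 8.90 and 8.50 in control cells (adjusted p = 0.27). Ptprc, the gene of CD45, was at 3.50 to 3.83 in GFP-positive and at 3.49 to 3.58 in control cells. Krt8 itself was at 11.17, 10.54 and 10.86 in GFP-positive cells, against 10.14, 10.84 and 10.04 in control cells (adjusted p = 0.26), and the groups overlapped. Pik3ca was at 6.57, 6.98 and 5.97 in GFP-positive and at 6.15, 6.63 and 6.61 in control cells. Whether its probe set reads the transgene was not tested.

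Of 19937 genes, 843 (4.23%) were called at an adjusted p under 0.05 in the fit over all 20 arrays, 463 (2.32%) higher and 380 (1.91%) lower in GFP-positive mutant cells. Among them, 294 genes were higher and 172 lower by at least 1 on the log2 scale, 95 higher and 44 lower by at least 2, and 27 higher and 10 lower by at least 3. The median difference of all genes was -0.03. Counts of called list and family members below are to be read beside the 4.23% of all genes. After a filter on low values, 890 of 12433 genes were called, so lists of expressed genes start from a higher share. Of the called genes, 834 had no overlap between the 6 arrays, as had 3707 (18.6%) of all genes. Fitted on the 6 arrays alone, with fewer degrees of freedom and a spread estimate from these arrays only, 276 genes were called. Which of these changes lowered the count was not tested. Of 224 named called genes, 109 lost their call in that fit, and those described below are given with its adjusted p. All other SE and adjusted p come from the fit over all 20 arrays, whose spread estimate also draws on the arrays not compared. Between the fit over 20 arrays and that on 6, the adjusted p went from 3.08e-09 to 0.00217 for Fndc1. For Grik3 it went from 6.4e-08 to 0.00181. The SD of Fndc1 was 0.60 in GFP-positive cells and 0.04 to 0.23 in the other groups. Its shared spread thus drew mostly on tighter arrays.

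**Figure D1:**
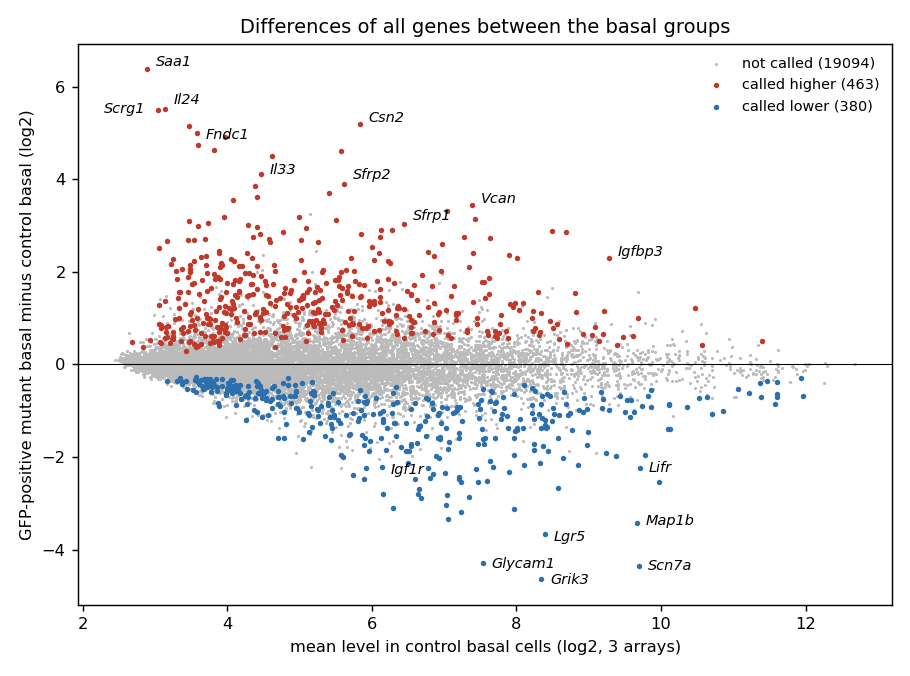
Difference of each of 19937 genes between GFP-positive mutant basal and control basal cells (vertical, log2) against its mean level in control basal cells (horizontal, log2, 3 arrays). Red points are the 463 genes called higher and blue points the 380 called lower, and the largest rises, such as Saa1 at 6.37, start at control levels near 3.

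Among the lists, which were chosen with earlier results of these data known, acute-phase and innate defence genes had the most rises. Of 29 measured members, 10 rose, 1 fell and 18 were not called, with a median of 0.70. Saa1, which encodes a serum amyloid A protein of the acute phase, was at 9.78, 8.88 and 9.13 in GFP-positive cells, against 2.97, 2.92 and 2.79 in control cells. The control arrays were low and the GFP-positive arrays in the upper range, a difference of 6.37 ± 0.47 (SE, adjusted p = 6e-07). Saa2, its neighbour on chromosome 7 with 0 protein-coding genes between them, was at 9.35, 8.23 and 8.25 in GFP-positive cells, against 3.60, 3.26 and 3.55 in control cells. Saa2 rose by 5.14 ± 0.39 (SE, adjusted p = 6.67e-07). The genes are close paralogs, and whether a probe set of one also reads the other was not tested. Saa3, a further member of the cluster, was at 5.78, 3.21 and 4.29, against 3.19, 3.21 and 3.22 in control cells, and was not called (adjusted p = 0.21).

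The promoters of Saa1 and Saa2 are shown because these neighbours had the largest rises of the list. Each run of 300 bases spans 250 bases before to 50 after the gene's start in RefSeq (GRCm38.p6). Saa1 lies on the minus strand at chr7:46742931-46743230, and Saa2 on the plus strand at chr7:46751583-46751882. Capitals mark a match to TTGCNNAA, a form of the site of C/EBP transcription factors, searched on both strands.
Saa1: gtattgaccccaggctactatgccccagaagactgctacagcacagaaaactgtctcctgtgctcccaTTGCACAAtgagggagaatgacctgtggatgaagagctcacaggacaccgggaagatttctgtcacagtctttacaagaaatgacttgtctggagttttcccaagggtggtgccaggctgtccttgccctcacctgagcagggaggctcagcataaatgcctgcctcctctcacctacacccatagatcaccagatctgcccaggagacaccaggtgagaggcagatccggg
Saa2: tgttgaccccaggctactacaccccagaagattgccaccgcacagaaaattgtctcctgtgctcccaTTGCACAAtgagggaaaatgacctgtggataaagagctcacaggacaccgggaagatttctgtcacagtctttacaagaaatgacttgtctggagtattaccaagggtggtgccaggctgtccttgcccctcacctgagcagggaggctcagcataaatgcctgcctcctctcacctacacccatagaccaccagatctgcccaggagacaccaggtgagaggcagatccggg
The marked match is the same in both and begins 182 bases before the Saa1 start and 183 before the Saa2 start. Set side by side with a shift of 1 base and no gaps, the promoters were identical at 208 of 299 positions (69.6%). This share understates their likeness. Downstream of the match the Saa2 run holds 1 base more than the Saa1 run, and the bases past it were compared out of register. The same letters occurred in 11 of 22 promoters of the list that the RefSeq table holds, and in 10.8% of 27025 promoters in all. Among the called genes with a promoter, they occurred in 35 of 350 that were higher and 8.22% of 292 that were lower. Cebpd, the gene of a C/EBP factor of the acute-phase response, was at 7.42, 6.33 and 7.97 in GFP-positive cells, against 9.33, 8.85 and 8.73 in control cells. All 3 GFP-positive arrays were lower, and Cebpd fell by 1.73 (adjusted p = 0.005, and 0.148 on the 6 arrays alone).

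S100a8, a calcium-binding protein of inflamed epithelia and myeloid cells, was at 8.74, 7.88 and 8.37 in GFP-positive cells, against 3.71, 3.58 and 3.48 in control cells. It rose by 4.74 ± 0.54 (SE, adjusted p = 5.72e-05). Its usual partner S100a9 stayed near the array median, at 3.38, 4.29 and 3.49 in GFP-positive and 3.45, 3.68 and 3.70 in control cells. Hp, which encodes the haemoglobin scavenger haptoglobin, was at 8.53, 7.24 and 8.93, against 5.51, 4.15 and 3.50 in control cells, and rose by 3.85. Ptgs2, the cyclooxygenase of prostaglandin synthesis, was at 10.31, 10.44 and 10.33, against 7.13, 7.88 and 7.88 in control cells, and rose by 2.73. The adhesion molecule gene Ceacam1 rose by 2.76, the bacterial lipoprotein receptor gene Tlr2 by 2.18 and the lipopolysaccharide co-receptor gene Cd14 by 2.02 (adjusted p = 0.12 for Cd14 on the 6 arrays alone). The other rises, Lrg1 (1.55) and Camp (0.50), and the fall of the protease inhibitor gene Slpi (-0.84) lost their calls when single arrays were left out, with adjusted p up to 0.1032, 0.1637 and 0.08792. With the 6 arrays alone it was 0.147 for Lrg1 and 0.320 for Camp. The abundant defence gene Lcn2 was at 11.45 to 11.74 in GFP-positive and at 11.38 to 11.63 in control cells and was not called.

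Cytokine genes that rose were few and steep. Of 35 measured, 5 rose and 2 fell, and the median was 0.05. Il24, an IL-10-family cytokine that signals through IL-20 receptors, was at 8.60, 9.39 and 7.96 in GFP-positive cells, against 3.01, 3.08 and 3.32 in control cells. All control arrays were below the array medians, and Il24 rose by 5.51 ± 0.36 (SE, adjusted p = 1.53e-07). Il19 of the same family was at 7.02, 6.10 and 5.55, against 3.39, 3.73 and 3.50 in control cells, and rose by 2.69 ± 0.24 (SE, adjusted p = 5.19e-06). Il20, which lies between them on chromosome 1, differed by 0.06 and was not called. The alarmin gene Il33 was at 8.93, 8.39 and 8.43, against 4.12, 4.48 and 4.78 in control cells, and rose by 4.12 ± 0.31 (SE, adjusted p = 6.67e-07). The chemokine genes Cxcl12, whose product binds CXCR4, and Cx3cl1, whose product can be tethered to the membrane, rose by 2.25 and 1.78. Kitl, the ligand of KIT, was at 7.25, 7.08 and 7.43, against 8.56, 8.22 and 8.17 in control cells, and fell by 1.06. The RANK ligand gene Tnfsf11 was the other fall (-0.37), a call lost without single arrays (adjusted p up to 0.1279) and on the 6 arrays alone (adjusted p = 0.323).

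Among 22 receptors for cytokines, 0 rose and 2 fell (9.09% called, against 4.23% of all genes). Lifr, the receptor for leukemia inhibitory factor, was at 7.24, 7.59 and 7.62 in GFP-positive cells, against 9.89, 9.61 and 9.62 in control cells. The groups were far from overlapping, and Lifr fell by 2.22 ± 0.14 (SE, adjusted p = 1.18e-07). Il6st, its signalling partner gp130, was at 8.60, 8.44 and 8.76, against 9.75, 9.62 and 9.49 in control cells, and fell by 1.02. The IL-20 receptor chains Il20ra and Il20rb differed by -0.11 and -0.10 and were not called. Of 14 JAK-STAT and SOCS genes, Ghr, the growth hormone receptor, rose by 1.65. The feedback gene Cish fell by 1.10, and Bcl3 fell by 2.02. On the 6 arrays alone the adjusted p was 0.146 for Cish and 0.0838 for Bcl3. The call of Bcl3 was lost without control replicate 3 (adjusted p = 0.103) and without GFP-positive replicates 2 and 3 (adjusted p = 0.09148 and 0.08367). Socs3, an inhibitor induced by STAT3, was at 8.46, 6.78 and 6.32, against 8.49, 10.22 and 8.59 in control cells (adjusted p = 0.08).

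Of the ERBB list, 2 ligand genes rose and no receptor gene was called. Nrg1, the ligand of ERBB3 and ERBB4, was at 9.09, 8.98 and 9.29 in GFP-positive cells, against 4.42, 5.63 and 6.19 in control cells. Nrg1 rose by 3.71 ± 0.45 (SE, adjusted p = 0.000116). Ereg, a ligand of EGFR, was at 4.92, 4.98 and 5.16, against 3.15, 3.91 and 3.31 in control cells, and rose by 1.56. The receptor genes Egfr, Erbb2, Erbb3 and Erbb4 differed by 0.09, 0.33, -0.48 and 0.08. Of 13 members of this list, 2 rose and 0 fell, with a median of 0.08.

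Wnt pathway genes changed in both directions. Of 33 measured, 4 rose and 5 fell, and the median was -0.32. Sfrp1, which encodes a secreted Wnt-binding protein, was at 9.79, 8.98 and 9.64 in GFP-positive cells, against 6.36, 6.46 and 6.50 in control cells, and rose by 3.03 ± 0.21 (SE, adjusted p = 3.72e-07). Its paralog Sfrp2 was at 9.81, 9.29 and 9.45, against 6.84, 5.57 and 4.44 in control cells, and rose by 3.90 ± 0.61 (SE, adjusted p = 0.00108). The control arrays were tight for Sfrp1 and spread for Sfrp2. Sostdc1, a secreted BMP and Wnt antagonist outside the list, was at 8.38, 8.21 and 9.27, against 4.97, 6.88 and 4.65 in control cells, and rose by 3.12. Its call was lost in the fit on the 6 arrays alone (adjusted p = 0.087). Cd44, an adhesion receptor and Wnt target, rose by 1.33.

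Lgr5, which encodes an R-spondin receptor of stem and progenitor cells, was at 4.6, 4.05 and 5.55 in GFP-positive cells, against 8.35, 8.22 and 8.61 in control cells. It fell by 3.66 ± 0.27 (SE, adjusted p = 5.69e-07), and GFP-positive replicate 3 stood above the 2 others. Lgr6, its paralog, was at 6.51, 6.63 and 6.74, against 7.30, 8.29 and 8.42 in control cells, and fell by 1.38, with its call lost on the 6 arrays alone (adjusted p = 0.113). The third paralog Lgr4 differed by -0.33 and was not called. The Wnt receptor gene Fzd7, outside the list, was at 7.76, 8.17 and 7.57, against 10.07, 9.23 and 10.03 in control cells, and fell by 1.95. Not every inhibitor rose, since Wif1, a secreted Wnt inhibitor, was at 4.02, 4.70 and 4.90, against 6.81, 6.89 and 6.65 in control cells, and fell by 2.24. Apcdd1, a membrane Wnt inhibitor, fell by 1.09 (adjusted p = 0.0735 on the 6 arrays alone). The feedback targets Axin2, Nkd1, Rnf43 and Sp5 differed by -0.37, -1.08, -0.32 and -0.38 and were not called. The calls of Myc (-0.62) and Tcf7l2 (0.87) did not last without single arrays (adjusted p up to 0.05112 and 0.06971), and that of Myc was lost on the 6 arrays alone (adjusted p = 0.144).

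**Figure D2:**
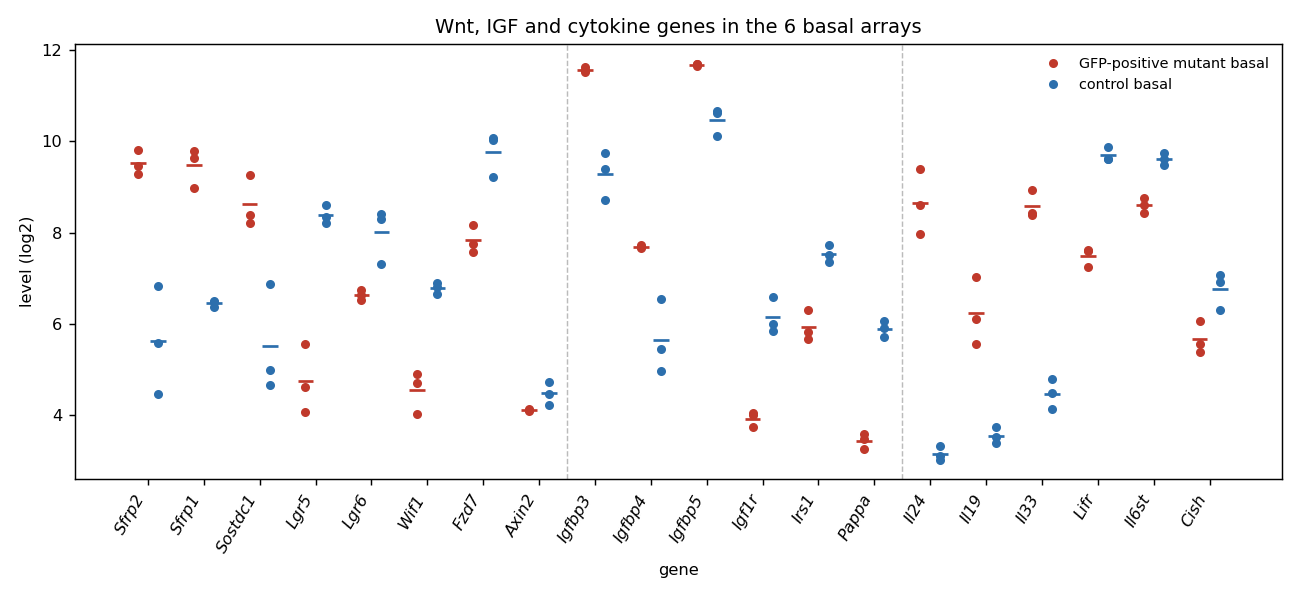
Levels (log2) of 20 Wnt, IGF and cytokine genes in the 3 GFP-positive mutant basal arrays (red, left of each pair) and the 3 control basal arrays (blue), with a line at each mean. Lgr5 lies at 4.05 to 5.55 in GFP-positive cells and at 8.22 to 8.61 in control cells, and Sfrp1 at 8.98 to 9.79 in GFP-positive cells and at 6.36 to 6.50 in control cells.

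The IGF system, which signals through PI3K, changed at its receptor and its binding proteins. Igf1r, the IGF1 receptor, was at 4.03, 3.73 and 3.98 in GFP-positive cells, against 6.0, 5.84 and 6.57 in control cells. The GFP-positive arrays were near the array median, and Igf1r fell by 2.22 ± 0.16 (SE, adjusted p = 3.48e-07). Irs1, the adaptor between this receptor and PI3K, was at 5.81, 6.30 and 5.67, against 7.35, 7.74 and 7.51 in control cells, and fell by 1.61. Igfbp3, the gene of an IGF-binding protein, was at 11.53, 11.63 and 11.57, against 8.70, 9.40 and 9.74 in control cells, and rose by 2.29 ± 0.33 (SE, adjusted p = 0.000481). Igfbp4 was at 7.73, 7.68 and 7.65, against 4.97, 6.53 and 5.44 in control cells, and rose by 2.04. Both were nearly level across the GFP-positive arrays and spread across the controls. Pappa, the protease that cleaves IGFBP4, was at 3.25, 3.46 and 3.57, against 5.90, 5.72 and 6.05 in control cells, and fell by 2.46 ± 0.18 (SE, adjusted p = 6e-07). Igfbp5 (1.21) and Igfbp2 (1.01) also rose, but single arrays ended these calls: without control replicate 1 the adjusted p of Igfbp5 was 0.05334, and without GFP-positive replicate 1 or 3 that of Igfbp2 was 0.05447 or 0.05096. The calls of Igfbp4 and Igfbp2 were lost on the 6 arrays alone (adjusted p = 0.0734 and 0.189). In the family of 11 measured IGF ligand, receptor and binding-protein genes, 4 rose and 1 fell.

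The PI3K components themselves moved little. Of 24 measured, 2 rose and 0 fell (8.33% called, against 4.23% of all genes), and the median was 0.03. Pik3r3, the gene of a regulatory subunit, was at 6.0, 5.30 and 5.01, against 4.23, 4.13 and 3.83 in control cells, and rose by 1.37, with an adjusted p of 0.085 on the 6 arrays alone. Inpp4b, a phosphatase that opposes the pathway, rose by 0.57 from levels near the array median, a call lost without GFP-positive replicate 1 or control replicate 2 or 3 (adjusted p up to 0.1084). Of 28 FOXO factors and FOXO-linked genes, 5 rose and 4 fell, and the median was -0.07. Sesn3, a sestrin that FOXO factors induce, was at 8.73, 8.76 and 8.50, against 5.79, 6.49 and 5.28 in control cells, and rose by 2.81 ± 0.35 (SE, adjusted p = 0.000116). Of other genes that FOXO factors can induce, Bcl6 rose by 1.72, Cat, the gene of catalase, by 1.5 and Cited2 by 1.23 (adjusted p = 0.0772 for Cited2 on the 6 arrays alone). Txnip, the inhibitor of thioredoxin, was at 7.67, 7.40 and 7.56, against 8.97, 9.17 and 8.85 in control cells, and fell by 1.45. Pik3ip1, an inhibitor of PI3K, fell by 0.68 (adjusted p = 0.141 on the 6 arrays alone). The falls of Igf1r and Irs1 are counted in this list too, and Foxo1 (-0.44) and Foxo3 (0.14) were not called. Klf6 rose by 0.58 with a call lost without GFP-positive replicate 1 or 3 or control replicate 3 (adjusted p up to 0.1521). On the 6 arrays alone the adjusted p was 0.190 for Inpp4b and 0.299 for Klf6.

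Matrix and matricellular genes included several of the largest rises. Of 31 measured, 8 rose and 2 fell, and the median was 0.30. Fndc1, a fibronectin type III domain protein gene, was at 9.22, 8.48 and 8.03 in GFP-positive cells, against 3.61, 3.45 and 3.68 in control cells, and rose by 4.997 ± 0.21 (SE, adjusted p = 3.08e-09). Sparcl1, a SPARC relative, was at 9.37, 8.13 and 9.16, against 3.91, 3.39 and 4.6 in control cells, and rose by 4.92. Both were low in controls or close to it and among the brighter genes in GFP-positive cells. Fbln5, which helps assemble elastic fibres, was at 7.97, 7.31 and 7.62, against 4.05, 4.24 and 3.96 in control cells, and rose by 3.55. Vcan, a large chondroitin sulfate proteoglycan, was at 10.88, 10.71 and 10.90, against 7.05, 7.97 and 7.13 in control cells, and rose by 3.44. Dcn, the small proteoglycan decorin, was at 10.84, 10.15 and 10.75, against 6.16, 8.24 and 7.90 in control cells, and rose by 3.15, with an adjusted p of 0.061 on the 6 arrays alone. Smoc1 and Thbs2 rose by 2.31 and 1.0. The proteoglycan gene Prelp went the other way, at 7.67, 7.15 and 7.47, against 10.20, 9.88 and 9.84 in control cells, and fell by 2.54. Bgn, the gene of biglycan, rose by 1.17, a call that ended whichever of the 6 arrays was left out (adjusted p 0.08628 to 0.1508). Ecm1 fell by 1.36.

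Among 44 collagen genes, 8 rose and 1 fell. Col4a5 and Col4a6, which are neighbours on chromosome X and encode basement-membrane chains, rose by 1.24 and 1.44. Col4a6 was at 6.71, 6.46 and 6.32 in GFP-positive cells, against 4.87, 5.30 and 4.99 in control cells. Col11a1, Col9a3, Col9a2 and Col7a1 rose by 1.49, 1.13, 0.95 and 0.88, and Col14a1 fell by 1.21. On the 6 arrays alone the adjusted p was 0.0567 for Col11a1, 0.152 for Col9a2 and 0.119 for Col14a1. Of the collagen genes of fibroblasts, Col1a2 was at 4.66, 4.93 and 5.90 in GFP-positive cells, against 4.41, 4.19 and 4.24 in control cells, and rose by 0.88. Its call was lost without any 1 control array or GFP-positive replicate 3 (adjusted p 0.05345 to 0.09366) and on the 6 arrays alone (adjusted p = 0.325). Col1a1 was at 4.30 to 4.55 in GFP-positive and 4.40 to 4.52 in control cells, and Col3a1 at 3.68 to 3.87 in GFP-positive and 3.72 to 4.00 in control cells, and neither was called. The summed level of 10 fibroblast markers was 42.51 to 44.36 in GFP-positive and 38.71 to 39.95 in control arrays, and their part in the matrix and collagen rises was not tested.

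Several contractile genes of basal cells were lower. Of 25 basal myoepithelial markers, 8 fell, 1 rose and 16 were not called, and the median was -0.30. Myh11, smooth muscle myosin, was at 9.93, 10.01 and 9.87 in GFP-positive cells, against 10.69, 10.52 and 10.70 in control cells, and fell by 0.70 ± 0.15 (SE, adjusted p = 0.0127). Lmod1, which nucleates smooth muscle actin filaments, was at 4.72, 4.01 and 4.32, against 6.33, 6.53 and 5.74 in control cells, and fell by 1.85. Synm, an intermediate filament protein gene, was at 4.91, 4.64 and 4.33, against 6.34, 6.45 and 6.43 in control cells, and fell by 1.78. None of these groups overlapped. Oxtr, the oxytocin receptor that triggers milk ejection, was at 7.23, 6.15 and 5.83, against 8.29, 8.52 and 7.93 in control cells, and fell by 1.84. The P-cadherin gene Cdh3 fell by 1.09 and the smooth muscle gene Smtn by 1.03. On the 6 arrays alone the adjusted p was 0.094 for Oxtr, 0.1025 for Cdh3 and 0.087 for Smtn. Id4 fell by 0.73, with an adjusted p up to 0.1809 without single arrays and of 0.298 on the 6 arrays alone, and Lgr5 is counted in this list too. The summed level of the 25 markers was 203.48 to 212.78 in GFP-positive and 221.18 to 222.88 in control arrays. Smooth muscle actin, Acta2, was at 11.15, 11.13 and 10.99 in GFP-positive cells, against 11.41, 11.31 and 11.44 in control cells, and was not called (adjusted p = 0.73). The basal keratin genes Krt14 (-0.35) and Krt17 (-0.16) were not called either.

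Snai2, a basal and EMT transcription factor gene, was the rise in this list, at 9.20, 9.03 and 9.21 in GFP-positive cells, against 8.04, 7.34 and 7.49 in control cells. It rose by 1.52 ± 0.32 (SE, adjusted p = 0.0102). Cdh2, which encodes N-cadherin, was at 6.13, 5.43 and 6.85, against 3.38, 3.46 and 3.52 in control cells, and rose by 2.68. The control arrays were low for Cdh2. Of 15 EMT genes, 3 rose and 2 fell, and the median was -0.01. Those of Zeb1 (0.71), Fn1 (-0.57) and Prrx1 (-0.66) were calls that single arrays ended, with adjusted p up to 0.1331, 0.1418 and 0.06207. Fitted to these arrays alone it was 0.297 for Zeb1, 0.185 for Fn1 and 0.176 for Prrx1. Vim (-0.25), Twist1 (-0.20) and the E-cadherin gene Cdh1 (0.63) were not called. Of 52 keratin genes, 6 rose and 1 fell. Krt16, a keratin of stressed and hyperproliferative epithelia, was at 7.79, 7.48 and 6.53, against 4.65, 4.23 and 4.48 in control cells, and rose by 2.81. Krt15, a basal keratin, was at 9.71, 10.08 and 10.28, against 6.66, 7.38 and 7.77 in control cells, and rose by 2.75. Krt23 rose by 1.8, a call lost without GFP-positive replicate 2 (adjusted p = 0.06202) and on the 6 arrays alone (adjusted p = 0.253), and Krt80 fell by 0.79 (adjusted p = 0.165 on the 6 arrays alone).

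Luminal genes rose in part, to different degrees. Of 18 general luminal markers, 5 rose and 0 fell, with a median of 0.48. Of 13 luminal progenitor markers, 5 rose and 0 fell, with a median of 0.81. Mfge8, a milk fat globule protein gene, was at 10.52, 9.90 and 10.48 in GFP-positive cells, against 8.17, 8.27 and 7.57 in control cells, and rose by 2.30 ± 0.23 (SE, adjusted p = 1.37e-05). Its level in control Sca1-negative luminal cells was 10.13 on average. Ehf, an epithelial ETS transcription factor gene, was at 8.36, 8.23 and 7.54, against 5.05, 3.89 and 4.31 in control cells, and rose by 3.62. Wfdc18 and Cd55 rose by 2.85 and 1.62, the keratin gene Krt7 by 1.8 and the tight junction gene Cldn7 by 1.46. The adjusted p on the 6 arrays alone was 0.086 for Wfdc18, 0.08 for Krt7 and 0.122 for Cd55 and 0.18 for Cldn7.

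Some luminal markers varied between the GFP-positive arrays. Krt19 was at 9.30, 7.60 and 8.83 in GFP-positive cells, against 7.37, 7.61 and 6.32 in control cells, so that replicate 2 overlapped the controls. Its rise of 1.48 lost its call without GFP-positive replicate 1 or 3 or control replicate 1 or 3 (adjusted p up to 0.1666). Muc1, a luminal mucin, was at 6.80, 3.99 and 6.26, against 4.06, 4.57 and 3.94 in control cells, and was not called (adjusted p = 0.18). Krt18 was at 11.01, 10.03 and 11.02, against 9.70, 9.95 and 9.40 in control cells, and rose by 1.01, with adjusted p of 0.05714 to 0.06115 without control replicate 3 or GFP-positive replicate 1 or 3. Elf5, the alveolar transcription factor gene, was at 7.01, 4.83 and 5.36, against 4.17, 3.69 and 3.83 in control cells, and rose by 1.84, with adjusted p up to 0.07329 without single arrays. On the 6 arrays alone the adjusted p was 0.312 for Krt19, 0.241 for Krt18 and 0.229 for Elf5. Summed over the 18 general markers, levels were 129.95 to 146.30 in GFP-positive arrays and 121.93 to 132.87 in control arrays, and the ranges overlapped. Summed over the 13 progenitor markers, they were 92.43 to 98.87 in GFP-positive and 77.03 to 84.45 in control arrays. The part of luminal cells or luminal RNA in the other differences was not tested. Among 8 hormone-sensing markers 0 rose and 2 fell. Pgr, the progesterone receptor gene, was at 3.37 to 3.70 in GFP-positive and 3.55 to 4.17 in control cells and was not called. Tbx3, a transcription factor gene of this list, was at 4.57, 3.83 and 4.64, against 6.57, 6.97 and 6.86 in control cells, and fell by 2.45.

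Milk genes had the highest list median, 1.66, with 4 of 11 members higher and 1 lower. As for every list, the members were chosen with earlier results of these data known. Csn1s1, an alpha casein gene, was at 10.40, 10.41 and 9.74 in GFP-positive cells, against 7.06, 5.63 and 4.02 in control cells. It rose by 4.61 ± 0.74 (SE, adjusted p = 0.00157), and the control pools spread over a wide range. The beta casein gene Csn2 was at 11.13, 10.998 and 10.92, against 8.08, 5.35 and 4.08 in control cells, and rose by 5.18 ± 1.09 (SE, adjusted p = 0.0116). This call was lost without control replicate 3 (adjusted p = 0.05861) and on the 6 arrays alone (adjusted p = 0.0703). Wap, the whey acidic protein gene, was at 8.32, 5.42 and 6.01, against 4.00, 3.29 and 3.51 in control cells, and rose by 2.98, led by GFP-positive replicate 1 (adjusted p = 0.15 on the 6 arrays alone). Xdh, which acts in milk fat secretion, was at 6.73, 5.70 and 6.55, against 3.79, 4.55 and 4.28 in control cells, and rose by 2.12. Glycam1 was the fall, at 3.29, 3.46 and 3.00, against 10.16, 3.23 and 9.21 in control cells. Control replicates 1 and 3 were high and control replicate 2 was low. The call was lost without either of them (adjusted p = 0.158 and 0.1587) and without any GFP-positive array (adjusted p 0.0897 to 0.11), and it was 0.393 on the 6 arrays alone.

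The promoters of Csn1s1 and Csn2 are shown as the milk genes with the largest rises, which are neighbours on chromosome 5 with 0 protein-coding genes between them. Csn1s1 lies on the plus strand at chr5:87665958-87666257 and Csn2 on the minus strand at chr5:87699376-87699675 (RefSeq, GRCm38.p6). Capitals mark TTCNNNGAA, the form bound by STAT factors such as STAT5, the mediator of prolactin. The form reads the same on both strands.
Csn1s1: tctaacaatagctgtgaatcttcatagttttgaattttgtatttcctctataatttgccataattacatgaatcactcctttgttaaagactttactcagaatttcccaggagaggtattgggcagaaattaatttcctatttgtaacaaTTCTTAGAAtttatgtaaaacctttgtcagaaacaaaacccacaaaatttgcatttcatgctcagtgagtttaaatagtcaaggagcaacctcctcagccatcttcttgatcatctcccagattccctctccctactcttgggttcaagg
Csn2: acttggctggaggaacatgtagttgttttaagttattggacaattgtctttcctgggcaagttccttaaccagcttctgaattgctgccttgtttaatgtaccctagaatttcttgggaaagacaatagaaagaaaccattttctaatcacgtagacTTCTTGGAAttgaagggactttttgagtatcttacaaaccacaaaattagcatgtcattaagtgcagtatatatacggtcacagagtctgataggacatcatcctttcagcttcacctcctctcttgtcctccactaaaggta
The match begins 100 bases before the start of Csn1s1 and 93 before that of Csn2. These letters occurred in 4 of 8 milk-list promoters in the table and in 8.47% of all 27025, as well as in 4.0% of 350 promoters of genes that were higher. Stat5a and Stat5b were not called, with differences of -0.78 and -0.68.

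Lineage genes were also taken as those called with a difference of at least 1 between GFP-negative mutant basal cells and both control luminal groups. The levels of the 6 compared arrays do not enter these differences, but their spread enters the shared fit, and leaving 1 of them out changed the sets from 424 and 487 genes to between 422 and 429 luminal and 487 and 494 basal genes. Of 487 basal lineage genes, 45 (9.24%) were higher and 93 (19.1%) lower in GFP-positive mutant cells, and the median was -0.26. Of 424 luminal lineage genes, 49 (11.6%) were higher and 6 (1.42%) lower, and the median was 0.20. Of the 19026 other genes, 1.94% were higher and 1.48% lower, with a median of -0.03. By their choice, lineage genes are expressed in at least 1 layer, which many of the other genes need not be. Most called basal genes were lower, and most called luminal genes were higher. On the arrays of the compared groups alone, 12 of 284 luminal genes were higher and 1 lower, and 20 of 338 basal genes were higher and 31 lower.

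**Figure D3:**
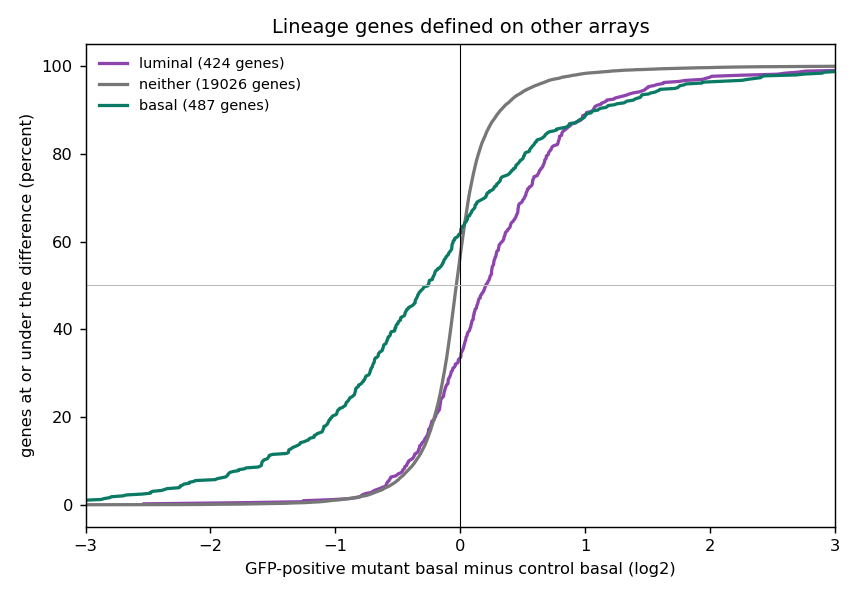
Cumulative share of genes (percent) by their difference between GFP-positive mutant basal and control basal cells (log2), for 424 luminal and 487 basal lineage genes and 19026 other genes. The luminal curve lies to the right of the others, with a median of 0.20, and the basal curve to the left, with a median of -0.26.

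Of 45 lineage transcription factor genes, 6 rose and 7 fell. Id2, an inhibitor of helix-loop-helix factors, was at 9.0, 8.83 and 8.69 in GFP-positive cells, against 7.15, 7.09 and 7.18 in control cells, and rose by 1.70. Its relative Id3 was at 5.52, 5.68 and 4.51, against 6.79, 7.40 and 6.97 in control cells, and fell by 1.82 (adjusted p = 0.073 on the 6 arrays alone). Tshz2, a zinc finger homeobox gene, was at 4.42, 4.86 and 4.21, against 7.80, 6.91 and 7.33 in control cells, and fell by 2.85. The forkhead genes Foxc1 and Foxp1 differed in direction, with a rise of 1.83 for Foxc1 and a fall of 0.93 for Foxp1 (adjusted p = 0.179 on the 6 arrays alone). Of 21 Notch pathway genes, the ligand gene Jag1 was at 8.76, 7.79 and 8.96, against 5.70, 6.23 and 6.34 in control cells, and rose by 2.41 ± 0.31 (SE, adjusted p = 0.000204). Notch1 (1.63) and Hes1 (0.69) rose with calls that single arrays ended (adjusted p up to 0.1628 and 0.1676, and 0.243 and 0.255 on the 6 arrays alone), and 0 members fell.

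Grik3 and Scn7a, both genes of ion channels, had the largest called falls. Grik3, a kainate-type glutamate receptor gene, was at 3.58, 3.73 and 3.82 in GFP-positive cells, against 8.66, 8.63 and 7.75 in control cells. It was near the array median in all 3 GFP-positive arrays and fell by 4.64 ± 0.28 (SE, adjusted p = 6.4e-08). Scn7a, a sodium channel gene, was at 5.75, 6.07 and 4.25, against 10.03, 9.53 and 9.55 in control cells, and fell by 4.34. Cacna2d1, a calcium channel subunit gene, was at 3.05, 3.48 and 3.08, against 6.88, 5.61 and 6.39 in control cells, and fell by 3.09. Map1b, a microtubule-associated protein gene, was at 7.23, 5.60 and 5.92, against 9.87, 9.69 and 9.44 in control cells, and fell by 3.41. The AMPA-type receptor gene Gria3 went the other way, at 5.62, 5.52 and 5.51, against 3.41, 3.54 and 3.50 in control cells, and rose by 2.07 ± 0.11 (SE, adjusted p = 1.31e-08). Counted by family, 1 of 25 glutamate receptor genes rose and 1 fell, and of 15 sodium channel and 24 calcium channel genes 1 each fell. These shares were 8%, 6.67% and 4.17%, against 4.23% of all genes. Of the other large falls, the complement regulator gene Serping1 fell by 3.03 and the complement component gene C4b by 2.43, the mannosidase gene Man1a by 3.12, the mechanically induced gene Ankrd1 by 2.87 and Nt5e, the gene of the AMP-hydrolysing enzyme CD73, by 2.37. Tfb2m (-3.18) and Fgg (-2.53) were also called lower, but their calls were lost without single arrays (adjusted p up to 0.119 and 0.06957). Another probe set of Tfb2m differed by -0.48.

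Scrg1, a secreted protein gene, was at 9.24, 8.20 and 8.17 in GFP-positive cells, against 2.97, 3.03 and 3.13 in control cells, and rose by 5.49 ± 0.29 (SE, adjusted p = 1.52e-08). The carbonic anhydrase genes Car12 and Car2 rose by 4.62 and 3.06, 2 of 16 measured family members. Among lipid synthesis genes, 4 of 20 rose and 0 fell, with a median of 0.13. Them5, a mitochondrial acyl-CoA thioesterase gene, was at 8.89, 8.76 and 9.72, against 4.97, 3.88 and 5.01 in control cells, and rose by 4.50. The malic enzyme gene Me1 rose by 2.14, the fatty acid elongase gene Elovl6 by 1.85 and the desaturase gene Scd2 by 1.8. The adjusted p was 0.096 for Elovl6 on the 6 arrays alone and up to 0.1275 for Scd2 without single arrays. Cholesterol synthesis genes had 2 of 18 higher (11.1%), glycolysis genes 1 of 16 (6.25%) and ATF4-linked genes 3 of 19 (15.8%). Of all genes, 4.23% were called. Vldlr, a lipoprotein receptor gene among the ATF4-linked genes, rose by 2.44. The phosphate transporter gene Slc20a1 was at 9.82, 9.63 and 9.96, against 7.25, 7.74 and 7.22 in control cells, and rose by 2.40. The glutamine transporter gene Slc1a5 was at 4.33, 4.47 and 5.0, against 6.07, 6.62 and 6.75 in control cells, and fell by 1.88. Over all 363 solute carrier genes, 9 rose and 4 fell, a share of 3.58% that was below that of all genes.

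Of 29 cell cycle genes, 0 were called and the median was 0.11. Of 16 endoplasmic reticulum chaperone genes 0 were called and the median was 0.37. Their differences were above 0 for 15 of 16, against 8638 of all 19937 genes. Compared with GFP-negative mutant basal cells, 3 of the 16 chaperone genes were called higher, against 2.05% of all genes. Immediate early and stress genes had 1 of 21 higher and 5 lower, with a median of -0.38. Among them Atf3, a stress-induced transcription factor gene, was at 10.87, 10.57 and 10.62, against 11.32, 11.38 and 11.46 in control cells, and fell by 0.70 (adjusted p = 0.0562 on the 6 arrays alone). The heat shock gene Hspa1a was at 7.41, 7.58 and 7.49, against 8.62, 8.75 and 8.39 in control cells, and fell by 1.10. Interferon response genes had 0 of 21 higher and 1 lower (4.76% called, against 4.23% of all genes). Phlda1 rose by 1.13 as the single call among 16 ERK pathway feedback genes (6.25%).

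**Figure D4:**
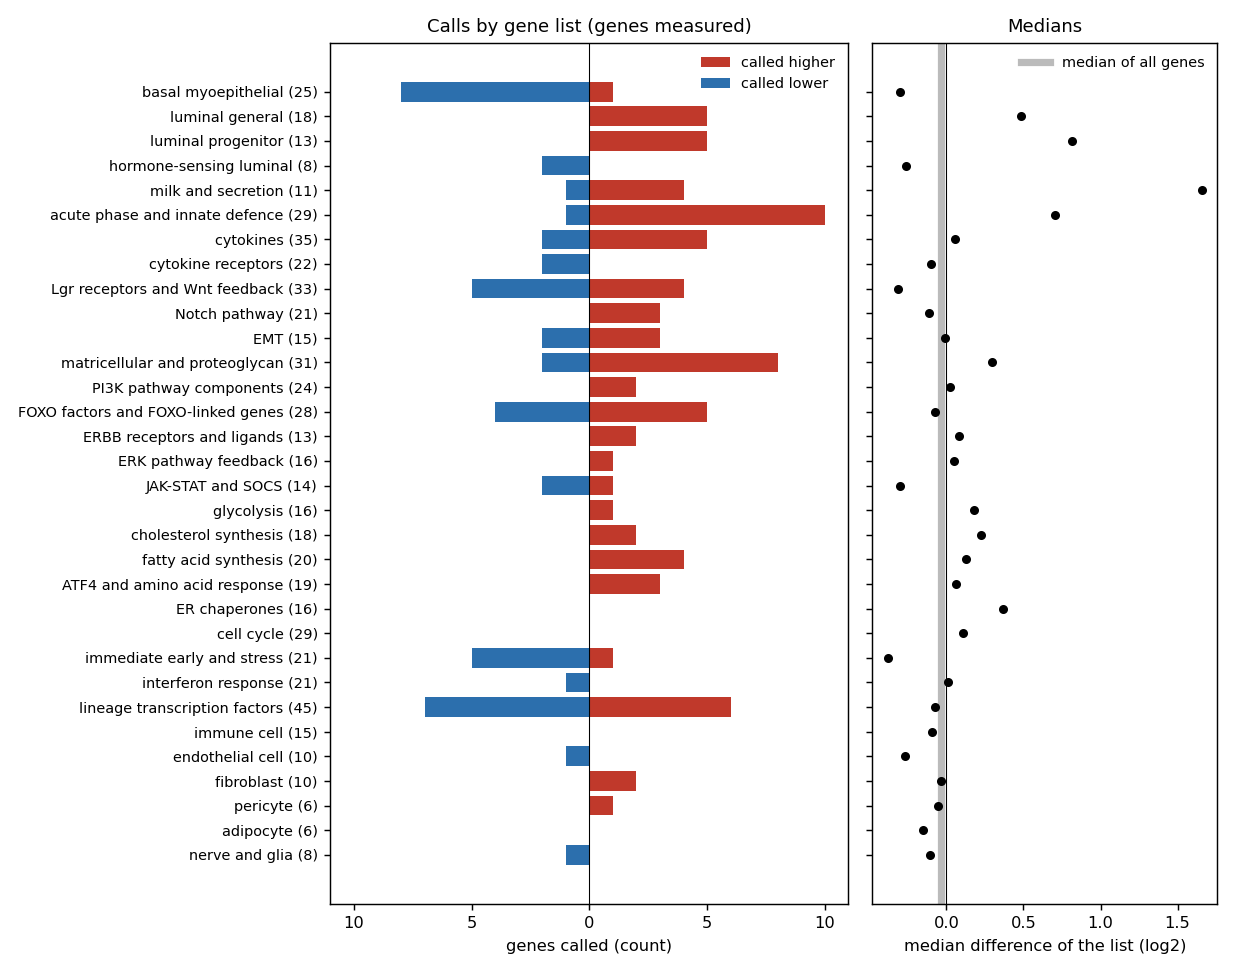
Left, number of genes called higher (red) and lower (blue) in GFP-positive mutant basal relative to control basal cells for each gene list, with the number measured in brackets. Right, the median difference of each list (log2), with a grey line at the median of all genes, -0.03. Milk genes have the highest median, 1.66, and immediate early genes the lowest, -0.38. The lists were chosen with earlier results of these data known.

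Markers of other cell types were mostly near the array median. Of 15 immune markers 0 were called, and their summed level was 51.55 to 52.08 in GFP-positive and 52.31 to 54.07 in control arrays. Endothelial markers summed to 34.05 to 35.58 in GFP-positive arrays and to 35.95 to 41.42 in control arrays. Of 10 endothelial markers, Cdh5 was called lower (-0.99), at 3.30, 3.52 and 3.31, against 4.01, 3.89 and 5.19 in control cells, and this call was lost without control replicate 3 (adjusted p = 0.0631) and without any GFP-positive array (adjusted p 0.05861 to 0.106), and it was 0.312 on the 6 arrays alone. Fibroblast markers summed to 42.51 to 44.36 in GFP-positive and 38.71 to 39.95 in control arrays, with 2 of 10 called, Dcn and Col1a2. The call of Col1a2 had the limits given above. Dcn averaged 10.48 in control Sca1-negative luminal cells. Pdgfra, 1 of the 8 fibroblast markers not called, was at 3.30 to 3.54 in GFP-positive and at 3.45 to 3.59 in control cells. The part of fibroblast RNA in the differences was not tested. Pericyte markers summed to 20.42 to 22.18 in GFP-positive and 20.91 to 22.11 in control arrays, and 1 of 6, Cspg4, was called higher (0.72, adjusted p = 0.342 on the 6 arrays alone). Nerve and glia markers summed to 29.81 to 31.78 in GFP-positive and 30.91 to 31.64 in control arrays, and 1 of 8, S100b, was called lower (-0.44, adjusted p up to 0.1261 without single arrays). Adipocyte markers summed to 21.48 to 22.31 in GFP-positive and 22.44 to 23.47 in control arrays, with 0 of 6 called.

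GFP-negative basal cells of the same mutant mice were a further comparison, given side by side since both comparisons share the GFP-positive arrays. GFP-positive minus GFP-negative mutant basal cells gave 648 calls (3.25%), 409 (2.05%) higher and 239 (1.2%) lower. With 1 array of these groups left out the count was 474 to 604, and on the compared arrays alone it was 134. GFP-negative mutant minus control basal cells gave 32 calls (0.161%). Il24 averaged 8.65 ± 0.72 in GFP-positive cells and 3.44 in GFP-negative mutant cells, and Lgr5 averaged 4.73 ± 0.76 and 8.77. Saa1 had a mean of 4.25 in GFP-negative mutant cells, where its 3 arrays were spread. Me1 was an exception among the named lipid genes, with a mean of 6.64 in GFP-negative mutant cells, close to 6.80 ± 0.12 in GFP-positive cells (adjusted p = 0.922 between them), against 4.65 ± 0.12 in control cells (SD, n = 3). The GFP-negative mean of Csn1s1 was 8.13, and the difference from GFP-positive cells was not called (adjusted p = 0.19). Of the 30 largest rises 25 were called in this comparison, and of the 30 largest falls 26, both on the shared GFP-positive arrays. Also not called were the rises of Csn2 (adjusted p = 0.13), Ehf (0.137), Cck (0.145) and Wap (0.057). The falls not called were Zfp296 (adjusted p = 0.553), Snora52 (0.924), Tfb2m (0.21) and Fgg (0.08).

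**Figure D5:**
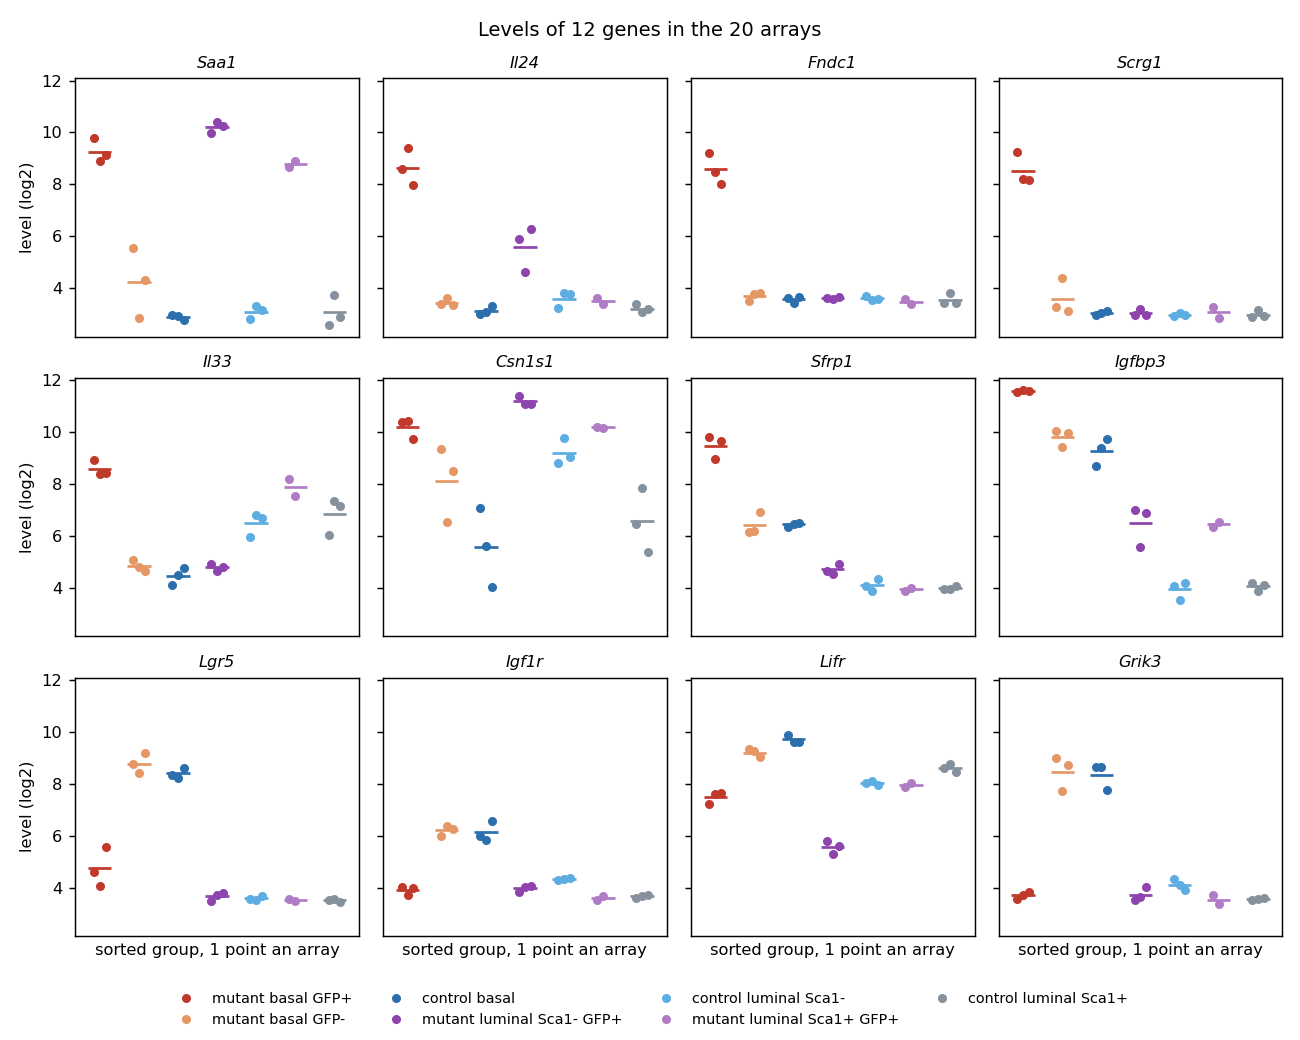
Levels (log2) of 12 genes in the 20 arrays, 1 point an array and a line at the group mean, with GFP-positive mutant basal cells at the left of each panel. Scrg1 and Fndc1 are at similar low levels in all other groups, apart from 1 GFP-negative mutant basal array for Scrg1, while Saa1 is high in all GFP-positive mutant groups.

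The luminal gates of the same genotypes showed which basal differences differed from those in luminal cells, by interaction terms of the same fit. The interaction was called for 310 genes (1.55%) with Sca1-negative luminal cells and for 218 genes (1.09%) with Sca1-positive luminal cells. Fndc1 differed by 0.02 between mutant and control Sca1-negative luminal cells, and the interaction was 4.98 ± 0.30 (SE, adjusted p = 5.66e-07). Between mutant and control Sca1-negative luminal cells 378 genes (1.9%) were called. Among them Il33 fell by 1.69 in luminal cells while it rose by 4.12 in basal cells, an interaction of 5.81 ± 0.44 (SE, adjusted p = 2.12e-06). Saa1 was higher by 7.12 in Sca1-negative luminal cells, and its interaction was not called (-0.75, adjusted p = 0.857). Igfbp3 and Lifr likewise had luminal differences of 2.55 and -2.47 with interactions that were not called in this gate (adjusted p = 0.957 and 0.833). For Lifr the interaction with the Sca1-positive gate was called (-1.57, adjusted p = 0.000965).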

How the data were processed

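Gene expression of sorted mouse mammary cells was measured on 20 Affymetrix arrays after whole-transcriptome amplification of RNA from 2000 cells, per the labels' protocols. The deposited values are log2 levels per probe set, and affy is the one package in the submitters' processing notes. How they were normalized is not given in the sources used here. Values were used as the authors deposited them, and depth has no meaning for arrays: their number limits the precision. Of 34760 probe sets, 21640 have 1 gene symbol in the platform annotation, 1321 several and 11799 none. The brightest probe set stood for each of 954 genes with more than 1, which left 19937 genes and no filter on low values. A linear model with 7 group means was fitted to all 20 arrays with limma 3.58.1 in R 4.3.3. Genes at a Benjamini-Hochberg adjusted p under 0.05 over all genes were called, with no fold limit. The compared pools are 3 sortings a group. The p-values and SE rest on the spread between pools within all 7 groups, not within the compared groups alone. The fit was tested on simulated data. The simulation gave each gene the same spread in all 7 groups, so it could not test the effect of unequal spread. Genes named are the 30 largest called rises and falls whose 6 arrays did not overlap between the groups, called members of the lists and families, chosen list members beside them, and the 10 strongest interactions each way. The members and lists were chosen with earlier results of these data known. Alternatives covered the arrays fitted, weights, blocks, scaling, filters, probe-set choice and each array left out. Sca1 itself, Ly6a, had no probe set with a single symbol and was not checked.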

Additional observations from a re-analysis of the deposited data

Results flagged for a closer look

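Mutant minus control differences that differed between basal and luminal cells, by the interaction term of the same limma fit, were called for 310 genes with the Sca1-negative luminal gate and for 218 with the Sca1-positive gate. A positive term means a more positive difference in basal cells. Against the Sca1-negative gate, the strongest positive terms were Dcn 5.97, Il33 5.81, Scrg1 5.42, Fndc1 4.98, Krt4 4.31, Tph1 3.91, Piezo2 3.71, Fbln5 3.61, Il24 3.51 and H2bc4 3.28. The strongest negative terms were Amtn -4.79, Scn7a -4.34, Grik3 -4.25, Ptprz1 -3.95, Lgr5 -3.74, Map1b -3.72, Slc43a3 -3.43, Mgll -3.37, Itprid1 -3.35 and Serping1 -3.22. For Krt4, Tph1, Piezo2, Amtn, Ptprz1 and Mgll the basal differences of -0.23, -0.11, 1.07, 0.96, -1.78 and -0.84 were not called.

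Against the Sca1-positive gate, which had 2 mutant arrays, the strongest positive terms were Scrg1 5.40, Il24 5.22, Fndc1 5.08, Sparcl1 4.63, Car12 4.39, Them5 4.35, Nrg1 3.63, Fbln5 3.38, Dcn 3.23 and Sntb1 3.13. The strongest negative terms were Grik3 -4.62, Scn7a -4.24, Chil1 -4.14, Man1a -4.02, Lgr5 -3.68, Itprid1 -3.56, Map1b -3.27, Serping1 -3.23, Npw -3.20 and Tnfsf9 -3.11. The basal difference of Chil1, 0.89, was not called. Groups had 2 or 3 arrays, so single arrays were not tested as outliers.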

How the results depend on the processing

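The 843 calls between GFP-positive mutant and control basal cells were 807 to 890 under array weights, quantile normalization, median centring, a low-value filter, mean probe sets, every probe set, a variance trend with robust prior and blocks, and 630 to 760 with 1 of the 6 arrays left out. On the arrays compared alone, counts were 276 here and 124 for the interaction with Sca1-positive luminal cells. They were 134 against GFP-negative basal cells and 64 for lineage genes. These fits had fewer degrees of freedom and spread estimates of their own. A difference of at least 1 left 466 calls here and 367 against GFP-negative basal cells. The split of the 843 calls, 463 higher and 380 lower, also moved. It was 515 and 292 with median centring, and 478 and 248 without GFP-positive replicate 2. Without that replicate 66 of 494 basal lineage genes were lower, against 93 of 487. With 1 array left out, calls were 223 to 293 and 117 to 216 for the Sca1-negative and Sca1-positive interactions (117 without mutant Sca1-positive luminal replicate 3), 474 to 604 against GFP-negative basal cells and 145 to 233 for lineage genes. Of 224 named called genes, 155 kept their call with any 1 array left out, and 105 under every setting without a fold limit. Over 3577 alternative values of these genes, 456 lost the call and 0 changed direction. Replicate numbers, tested as a replicate block, gave 869 calls, with 302, 190, 645 and 191 for the other counts in the order above. Same-numbered GFP-positive and control arrays correlated in their deviations at -0.044, -0.054 and 0.019, GFP-positive and GFP-negative mutant basal arrays at 0.041, 0.029 and 0.031, and GFP-positive basal and mutant Sca1-negative luminal arrays at 0.028, 0.103 and 0.064. Within the mutants each GFP-positive array correlated more with its own number than with the other numbers, a hint from the data, but not every pair passed 0.1, so the numbers were not taken to pair the pools. Sorted pools of 3 a group and unknown normalization limit precision.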
